A study of Mus musculus with 29 samples.

Results

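Fcrl5 and Cd72, which code for a pair of inhibitory receptors best known from B cells, were followed in macrophages beside the genes of the B lineage. Both were chosen by their levels in Ly6Clow macrophages, where they were far higher in Rnaset2-/- mice, and the B-lineage genes Fcrl1, Fcrla, Cd22, Cd79b, Ms4a1 and Pax5 were set beside them to see whether these went up as well. The rule took the rows of the deposited table with those symbols, which found 8 of 9 genes among the 23930 in the table. Cd79a was not analysed here. The answer differed between the sorted populations. In splenic Ly6Clow macrophages of Rnaset2-/- mice, Fcrl5 was at 191 ± 58.1 RPM (reads per 1000000 reads of the library, SD, n = 4) and Cd72 at 425 ± 142 RPM, with Ms4a1 at 1.40 ± 0.950 RPM and Pax5 at 0.584 ± 0.440 RPM. In wild-type Kupffer cells (KCs), Pax5 was at 274 ± 125 RPM and Ms4a1 at 68.1 ± 14.1 RPM (n = 4). Beside them, Fcrl5 was at 2.33 ± 1.02 RPM and Cd72 at 434 ± 40.0 RPM. In hepatic Ly6Chi macrophages of Rnaset2-/- mice, Fcrl5, Cd72 and the B-lineage genes were high in the same libraries.

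The 29 libraries came from cells sorted from the spleen and liver of C57BL/6 wild-type mice and of Rnaset2-/- mice, which lack both Rnaset2a and Rnaset2b, without treatment. The spleen gave 3 wild-type and 3 Rnaset2-/- libraries of Ly6Chi macrophages, and 3 wild-type and 4 Rnaset2-/- libraries of Ly6Clow macrophages. The liver gave 3 libraries of each subset from each genotype, and 4 libraries of KCs from wild-type mice only, which are labelled F4/80+ Tim4+, although the staining described in the methods for the liver names F4/80 and CD11b and not Tim4. Per the labels, Ly6Chi and Ly6Clow cells were gated as CD11b+ and negative for Ly6G, SiglecF and NK1.1, and Ly6Clow cells also as Fcgr4+. Per the methods, splenic cells bound by antibodies to lymphocyte, neutrophil or erythroid antigens (CD3, NK1.1, Ly6G and TER-119 among them) were removed before the sort. Rnaset2-/- is a germline deletion, so every cell of the animal lacks the enzyme. The ages of these animals, and whether each library is a separate mouse, are not given in the sources used here, so the p-values measure the spread between these libraries.

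B cells carry an antigen receptor whose signal runs through the Cd79a and Cd79b chains, and a set of co-receptors that raise or dampen it. CD22, a sialic acid-binding lectin, CD72, a C-type lectin that binds semaphorin 4D, and FCRL5, an Fc receptor-like protein of marginal zone and B-1 cells in the mouse, carry tyrosine motifs (ITIMs) that recruit phosphatases. FCRL1 is a relative that bears activating motifs, and FCRLA is a relative that stays inside the cell. Ms4a1 codes for CD20, a surface protein of mature B cells, and PAX5 is the transcription factor that commits progenitors to the B lineage. Syk, Lyn and the phosphatases that work with these receptors are also used by macrophages.

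Fcrl5 lies on chromosome 3 (GRCm38, 87435773 to 87500678, forward strand), 32839 bases downstream of the end of Fcrl1 (87376387 to 87402934, forward strand), with no annotated gene between them. Cd72 lies on chromosome 4 (43446462 to 43454628, reverse strand), where it overlaps Tesk1 on the other strand. Of the other members, Pax5 is also on chromosome 4 (44524757 to 44710487), Fcrla is on chromosome 1 (170917576 to 170927583), Cd22 on chromosome 7 (30865402 to 30880342), Cd79b on chromosome 11 (106311341 to 106314762) and Ms4a1 on chromosome 19 (11249675 to 11266241). All 8 are protein coding, and those 5 lie on the reverse strand. The amplicon kit measures each gene with its own amplicon, so levels are compared between libraries and not between genes.

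The promoters of Fcrl5, Cd72 and Fcrl1 are shown because Fcrl5 and Cd72 are the pair the comparison is about and Fcrl1 is the neighbour of Fcrl5. Each covers 250 bases before and 50 bases after the start given by RefSeq (GRCm38.p6), which had an entry for 6 of the 8 genes. Capitals mark the letters GAGGAA, a form of the site bound by PU.1, the transcription factor shared by macrophages and B cells, or their reverse complement TTCCTC. Other forms of that site were not searched. The windows are chr3:87435532-87435831 for Fcrl5, chr4:43454577-43454876 on the reverse strand for Cd72, and chr3:87376137-87376436 for Fcrl1.
Fcrl5: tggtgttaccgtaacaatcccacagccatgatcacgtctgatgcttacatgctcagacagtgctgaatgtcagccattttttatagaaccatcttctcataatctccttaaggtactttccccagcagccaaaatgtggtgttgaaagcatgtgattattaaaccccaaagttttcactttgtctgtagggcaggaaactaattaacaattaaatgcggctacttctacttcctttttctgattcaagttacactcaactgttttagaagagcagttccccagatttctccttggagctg
Cd72: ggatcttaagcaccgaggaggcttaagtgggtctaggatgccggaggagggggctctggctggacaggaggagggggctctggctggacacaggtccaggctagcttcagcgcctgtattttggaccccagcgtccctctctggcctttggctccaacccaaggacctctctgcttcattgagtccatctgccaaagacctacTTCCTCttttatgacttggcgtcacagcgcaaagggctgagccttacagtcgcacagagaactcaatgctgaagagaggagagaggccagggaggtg
Fcrl1: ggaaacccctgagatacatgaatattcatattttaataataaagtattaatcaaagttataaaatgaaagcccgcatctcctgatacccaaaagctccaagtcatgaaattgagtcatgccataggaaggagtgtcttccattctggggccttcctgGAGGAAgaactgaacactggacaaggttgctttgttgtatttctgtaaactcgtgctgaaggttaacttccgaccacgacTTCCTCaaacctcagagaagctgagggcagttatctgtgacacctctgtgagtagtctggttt
GAGGAA was present on either strand of 28.3% of the 32851 promoters in the table, so a match is common. It occurred once in the Cd72 window and once in that of Fcrla, at 2 places in that of Fcrl1, and not in the windows of Fcrl5, Cd22 and Pax5. The MAF half-site TGCTGAC (4.67% of all promoters), the octamer ATTTGCAT (1.74%) and the LXR half-site AGGTCA (16.3%) were searched in the same way on both strands and were not found in any of the 6 windows.

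The libraries held 11175843 to 21167602 reads (median 13027220), so 3 reads, taken as the floor of detection, correspond to 0.142 to 0.268 RPM. Csf1r, the receptor that macrophages depend on, was at 665 to 2178 RPM in every library, and Clec4f, a lectin of KCs, was at 1674 to 5470 RPM in KCs and at most 63.3 RPM elsewhere. KC replicate 3 stood apart, with a summed level of 8 KC genes of 6933 RPM against 16986 to 18957 RPM in the other 3. Replicates 1 and 2 of the Rnaset2-/- splenic Ly6Clow macrophages also stood apart, with 40758 and 22881 RPM of 12 neutrophil genes against 4409 and 3460 RPM in replicates 3 and 4. Replicate 2 of that group was the only splenic library with more than 0.140 RPM of Y-linked transcripts, at 301.2 RPM, and it had 0.781 RPM of Xist. In the liver, every Rnaset2-/- macrophage library had at most 0.154 RPM of Xist and 150 to 291 RPM of 4 Y-linked genes, whereas every wild-type library had at least 321 RPM of Xist and at most 52.0 RPM of the Y-linked genes, so genotype and the sex of the animals cannot be told apart there.

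Fcrl5 was near or below the floor in wild-type Ly6Chi macrophages, with 0, 0 and 0.140 RPM in the spleen and 0.232, 0 and 0 RPM in the liver. It was at 1.62 to 3.36 RPM in wild-type splenic Ly6Clow macrophages, at 1.90 to 2.50 RPM in hepatic Ly6Clow macrophages and at 1.43 to 3.76 RPM in KCs. These 3 groups overlapped. In Rnaset2-/- mice, the splenic Ly6Chi libraries were at 5.72, 4.31 and 4.04 RPM, each above every wild-type library of any kind. The hepatic Ly6Chi libraries were at 11.6, 58.4 and 30.5 RPM. The splenic Ly6Clow libraries were at 270.6, 135.7, 164.3 and 193.9 RPM, and the hepatic Ly6Clow libraries at 254.6, 818.3 and 450.0 RPM. The last pair of groups overlapped, whereas both stood above all other groups. KC replicate 3, the one low in KC genes, had the highest Fcrl5 of the KCs.

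Cd72 was ordered differently, since it was already present in wild-type liver. KCs held 376 to 467 RPM and wild-type hepatic Ly6Clow macrophages 180.0 to 200.2 RPM, against 11.8 to 15.0 RPM in wild-type splenic Ly6Clow macrophages. Wild-type Ly6Chi libraries held 17.4 to 18.9 RPM in the spleen and 8.95 to 15.9 RPM in the liver. In Rnaset2-/- mice, the splenic Ly6Clow libraries were at 634.6, 344.3, 334.6 and 386.3 RPM, overlapping the KCs, and the hepatic Ly6Clow libraries were above every other group at 771, 1986 and 1726 RPM. The hepatic Ly6Chi libraries were at 93.0, 132.1 and 130.5 RPM. In splenic Ly6Chi macrophages Cd72 was at 16.0, 7.79 and 8.64 RPM, below all 3 wild-type libraries, as 32.4% of the genes tested there were.

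**Figure D1:**
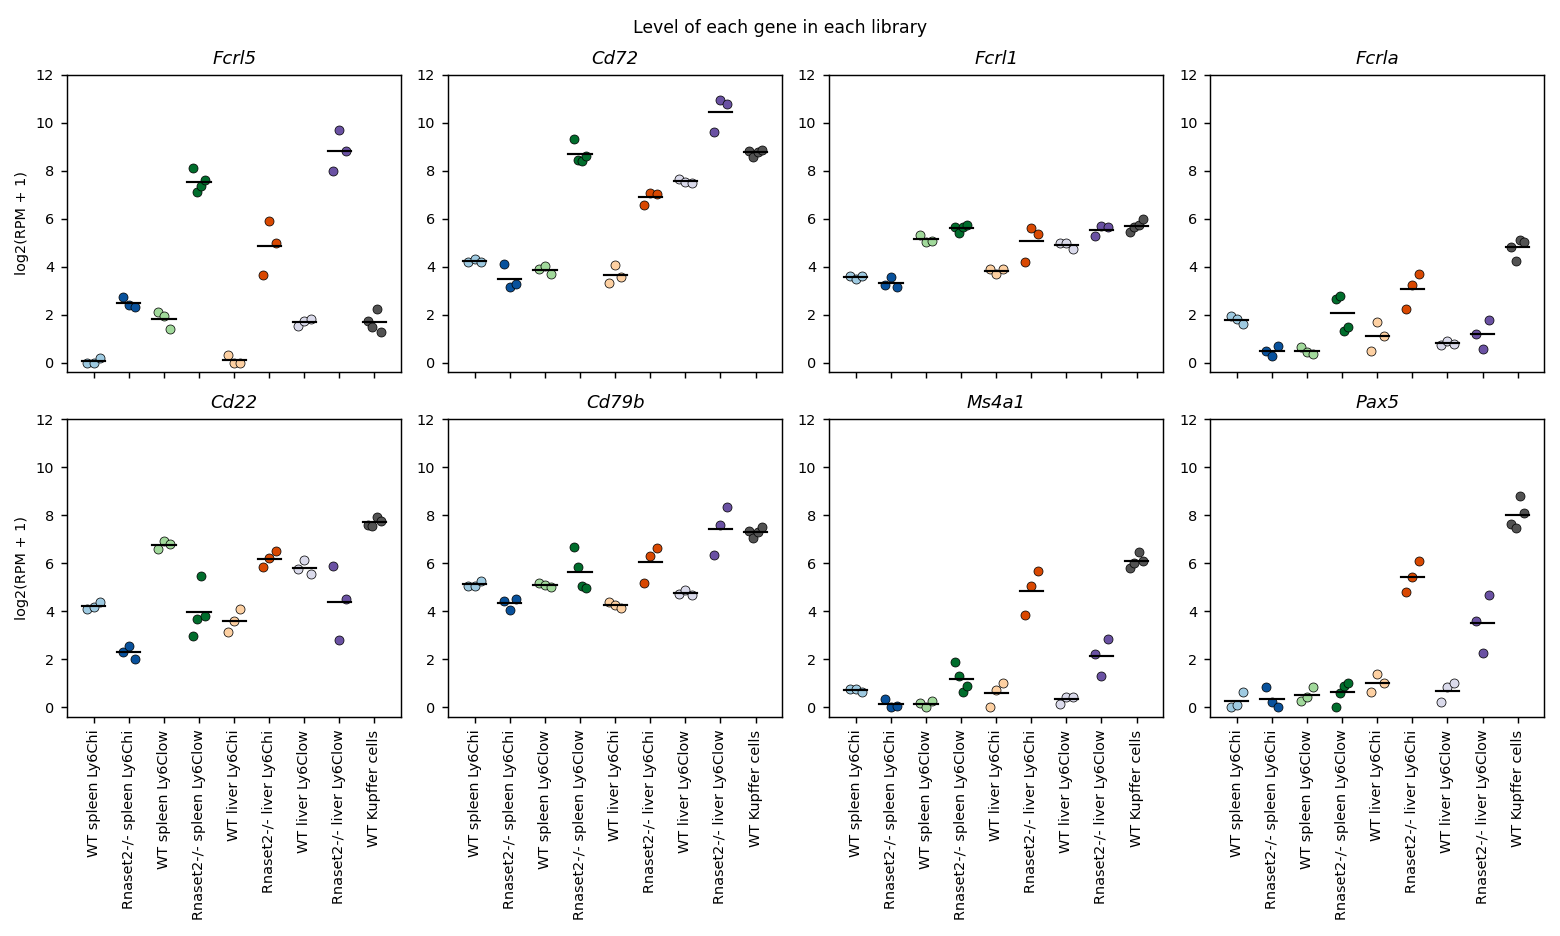
Level of the 8 genes in each of the 29 libraries, as log2(RPM + 1) on the vertical axis, by group on the horizontal axis. Each point is a library and each bar the mean of its group on the log2 scale. Fcrl5 is high in Rnaset2-/- Ly6Clow macrophages and near the bottom in KCs, whereas Ms4a1, Pax5 and Fcrla are highest in KCs.

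The B-lineage genes formed no single pattern. Ms4a1, Pax5 and Fcrla were highest in KCs, where Ms4a1 was at 54.1 to 87.6 RPM, Pax5 at 174 to 451 RPM and Fcrla at 17.6 to 33.5 RPM, above every other library. Rnaset2-/- hepatic Ly6Chi macrophages came next, with Ms4a1 at 13.4, 31.7 and 50.2 RPM and Pax5 at 26.9, 41.6 and 67.8 RPM. Ms4a1 was under 1 RPM in every wild-type library other than the KCs. Pax5 was at most 1.58 RPM in those libraries and in all splenic libraries. Without KC replicate 3, whose Pax5 was the highest at 451 RPM, the KCs were at 174 to 272 RPM. Genes of other cell types were also high in KC libraries. Their summed levels were 379 to 621 RPM for T cells, 310 to 871 RPM for NK cells and 3548 to 7465 RPM for endothelial cells, against at most 52.6, 52.9 and 484 RPM in wild-type hepatic Ly6C subsets. The endothelial list shares Cdh5 with the KC genes (mean 858 RPM in KCs) and Pecam1 with the inhibitory receptors described below. The part of these other cell types in the B-lineage levels of KCs was not tested.

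Cd22, Cd79b and Fcrl1 were found in every library, also where Ms4a1 and Pax5 were near 0. Cd22 was at 96.9 to 119.9 RPM in wild-type splenic Ly6Clow macrophages, in which Ms4a1 was at 0, 0.140 and 0.211 RPM. Only KCs, at 186 to 242 RPM, held more Cd22. Cd79b was at 15.7 to 37.3 RPM in every Ly6Chi library of the spleen, and its highest value of all was 328.1 RPM in a Rnaset2-/- hepatic Ly6Clow library. Fcrl1 varied least, from 7.79 RPM in a Rnaset2-/- splenic Ly6Chi library to 62.1 RPM in a KC library, and its 5 highest groups overlapped one with the next.

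In splenic Ly6Clow macrophages of Rnaset2-/- mice Fcrl5 and Cd72 were high, whereas Pax5 stayed near the floor and Cd22 was lower. The mean of Fcrl5 was 73.0-fold and that of Cd72 31.2-fold above wild type, with no overlap of libraries, and these values are given as a description because the pair was chosen for them. Fitted on log2(RPM + 1) after scaling, the differences were 5.72 ± 0.251 (SE) for Fcrl5 and 4.83 ± 0.205 for Cd72. Without replicates 1 and 2, those with many neutrophil transcripts, they were 5.72 and 4.69. Cd22 went the other way. It fell from 96.9, 119.9 and 109.9 RPM to 6.76, 11.9, 43.5 and 12.8 RPM, with a log2 fold change of -2.79 ± 0.511 and an adjusted p of 0.0162 (limma). The groups did not overlap, a position that 16.3% of all tested genes held in this direction and 14.3% in the other. The adjusted p of Cd22 was 0.0536 to 0.0829 when a wild-type library was left out.

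Of the other members in splenic Ly6Clow macrophages, Fcrla was the only one that rose, from 0.281 to 0.559 RPM in wild type to 5.19, 5.82, 1.49 and 1.76 RPM (log2 fold change 1.57 ± 0.376, adjusted p = 0.0380). It passed the filter on low values through the Rnaset2-/- libraries alone, the call was lost without any wild-type library or without Rnaset2-/- replicate 2 (adjusted p = 0.0788 to 0.138), and it was below the filter without replicates 1 and 2. Cd79b was at 99.9, 56.6, 32.1 and 30.2 RPM against 31.6 to 34.8 RPM, so that the excess lay in replicates 1 and 2. Its log2 fold change was 0.55 ± 0.343 (adjusted p = 0.317), and -0.02 without those libraries. For Fcrl1 the difference was 0.48 ± 0.144 (adjusted p = 0.0704), and 0.61 (adjusted p = 0.0206) without replicates 1 and 2. Ms4a1 and Pax5 were below the filter. Ms4a1 was at 2.70, 1.49, 0.567 and 0.845 RPM and Pax5 at 0, 0.497, 0.851 and 0.986 RPM, and Pax5 overlapped wild type, whereas each Ms4a1 value was above the wild-type maximum of 0.211 RPM. Over all 10295 genes tested, 4.05% were called higher and 4.30% lower by >1.5-fold at an adjusted p below 0.05, beside 1 higher and 1 lower of the 4 tested B-lineage members.

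**Figure D2:**
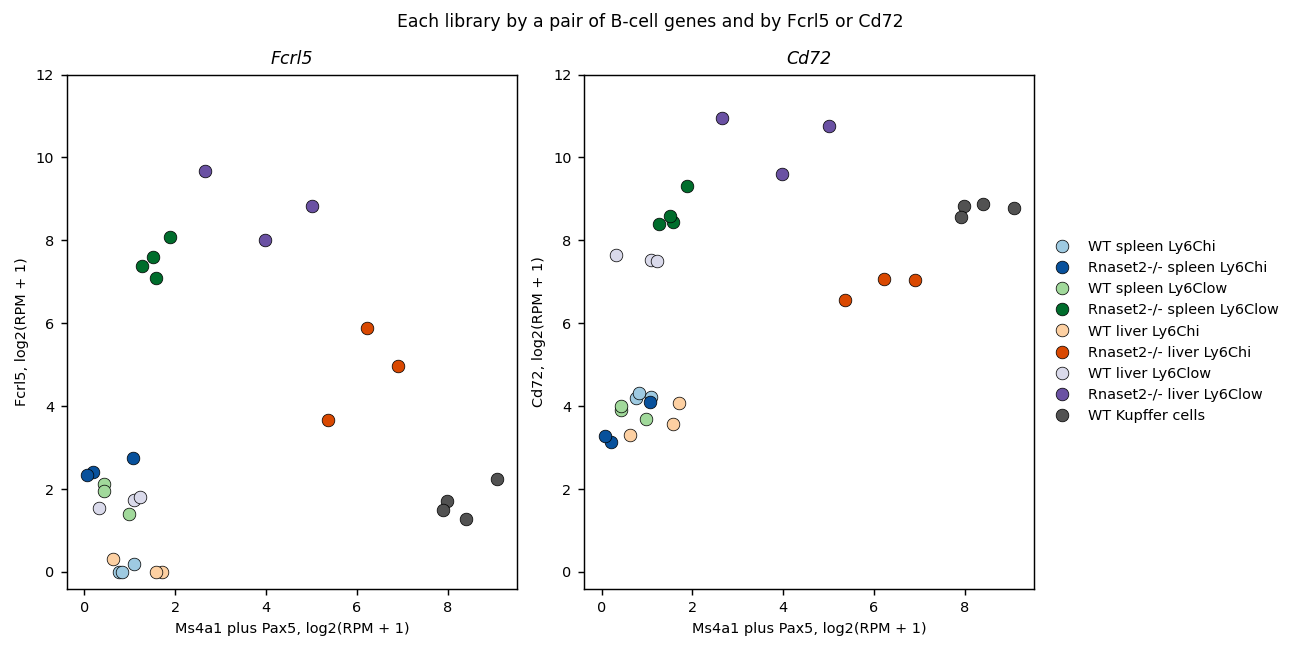
Each library by the summed level of Ms4a1 and Pax5 (horizontal axis) and by Fcrl5 or Cd72 (vertical axis), both as log2(RPM + 1) and coloured by group. Rnaset2-/- splenic Ly6Clow libraries lie at the upper left and KCs at the right, with Fcrl5 at the bottom in KCs and Cd72 near the level of the Rnaset2-/- splenic libraries.

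Other B-cell genes in the same splenic libraries fell into those that stayed near 0 and those that did not. Blk, a kinase of the antigen receptor, Fcer2a, the low-affinity IgE receptor, Cr2, a complement receptor, and Cxcr5, a chemokine receptor of follicular B cells, were under 1 RPM in all 4 Rnaset2-/- splenic Ly6Clow libraries. Ebf1 reached 2.21 RPM and Fcmr 2.27 RPM. Vpreb3 was at 15.4, 1.77, 0.284 and 0.564 RPM against at most 0.210 RPM in wild type. Tnfrsf13c was at 9.46, 3.62, 0.213 and 0.564 RPM against 0.351 to 0.769 RPM. Spib reached 16.7 RPM in replicate 2 and Bank1 57.1 RPM in replicate 1, against at most 6.25 and 24.9 RPM in wild type. In the other Rnaset2-/- libraries of this group they were at most 3.63 and 17.5 RPM. Of the 9 tested genes of a wider B-cell list (18 in the table), 3 rose and none fell, and without replicates 1 and 2 the number that rose was 4, whereas without any 1 wild-type library or without Rnaset2-/- replicate 2 it was 0. The 3 were Pou2af1, a coactivator of octamer factors (log2 fold change 3.65 ± 0.860, adjusted p = 0.0359), Blnk, an adaptor of the antigen receptor (2.50 ± 0.628, adjusted p = 0.0431), and Cd24a (2.22 ± 0.577, adjusted p = 0.0476). Pou2af1 was at 459, 134, 24.5 and 30.7 RPM against 4.29 to 7.14 RPM. Its order followed the libraries that stood apart, as did Jchain, the joining chain of secreted immunoglobulin, at 492.6, 1220, 180.0 and 156 RPM, and Mzb1, an endoplasmic reticulum protein of plasma cells, at 242, 105, 13.1 and 19.8 RPM. The summed level of 11 plasma-cell genes was 2810, 2572, 909 and 942 RPM, against 565 to 738 RPM in wild type. Of 12 tested neutrophil genes 2 rose, of 7 erythroid genes 3 rose, and of 10 NK-cell genes 7 fell. The part of these cells in Fcrl5 and Cd72 was not tested. Fcrl5 in replicates 3 and 4, at 164.3 and 193.9 RPM, was within the range of replicates 1 and 2, whereas Cd72 in replicate 3, at 334.6 RPM, was below their 344.3 and 634.6 RPM.

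In splenic Ly6Chi macrophages, Fcrl5 rose while the B-lineage genes that changed fell. The log2 fold change of Fcrl5 was 2.48 ± 0.190 (adjusted p = 1.06e-05, limma), with 294 reads in 3 Rnaset2-/- libraries against 2 reads in 3 wild-type libraries. The ratio of reads per total was 101 with an exact 95% interval of 27.8 to 839, which covers counting error only. Fcrl5 passed the filter through the Rnaset2-/- libraries alone, and its fitted value depends on the added 1. Cd72 fell by 0.63 ± 0.221 on the log2 scale (adjusted p = 0.0441), a call that was lost under 8 of 14 alternatives, with an adjusted p of 0.112 without the filter and 0.0628 in edgeR. Cd22 fell from 16.1 to 19.7 RPM to 2.99 to 4.80 RPM, by 1.83 ± 0.182 on the log2 scale (adjusted p = 5.39e-05). Fcrla fell by 1.26 ± 0.200 (adjusted p = 0.000855), although it passed the filter through wild type alone, and Cd79b by 0.67 ± 0.137 (adjusted p = 0.00363, and 0.245 in a single fit of all 9 groups). For Fcrl1 the difference was -0.15 ± 0.168 (adjusted p = 0.497). Ms4a1 and Pax5, at most 0.803 RPM in any of these libraries, were below the filter. Of 10398 genes tested, 9.77% were higher and 12.5% lower, beside 0 higher and 3 lower of the 4 tested B-lineage members.

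Genes of other lymphocytes fell in the same comparison. All 11 tested T-cell genes and all 10 NK-cell genes fell, with summed levels of 36.3 to 74.4 RPM against 455 to 461 RPM for T cells. All 8 tested genes of conventional dendritic cells and 5 of 7 of plasmacytoid dendritic cells fell too, and 7 of 12 neutrophil genes rose. Of 11 tested genes in the wider B-cell list, 6 fell and 1 rose, and the plasma-cell gene Jchain fell from a mean of 596 RPM to 94.9 RPM. The part of these other cells in the fall of Cd22, Cd79b and Fcrla was not tested. In bulk RNA, fewer cells of a type and less RNA per cell cannot be told apart.

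In hepatic Ly6Clow macrophages, Fcrl5 and Cd72 were highest of all and some B-lineage genes were higher too. The mean of Fcrl5 was 225-fold and that of Cd72 7.95-fold above wild type, again as a description. The smaller ratio of Cd72 goes with its higher wild-type level in the liver, 188 ± 10.8 RPM against 13.6 ± 1.66 RPM in the spleen (n = 3 each). Among the B-lineage genes, Pax5 rose from 0.166, 0.784 and 0.984 RPM to 11.1, 3.81 and 24.9 RPM (log2 fold change 2.81 ± 0.576, adjusted p = 0.00527). Ms4a1 rose from at most 0.358 RPM to 3.69, 1.48 and 6.12 RPM (1.77 ± 0.407, adjusted p = 0.00858). Both passed the filter through the Rnaset2-/- libraries alone, and were below it without any 1 of them. Cd79b rose from 24.4 to 28.6 RPM to 79.7, 189.7 and 328.1 RPM (2.62 ± 0.448, adjusted p = 0.00229). Fcrl1 rose by 0.59 ± 0.183 on the log2 scale (adjusted p = 0.0300), a call lost under 6 of 14 alternatives. Cd22 was at 58.3, 5.91 and 21.7 RPM against 45.5 to 70.2 RPM (-1.46 ± 0.666, adjusted p = 0.109), and the difference was -2.19 (adjusted p = 0.00501) without Rnaset2-/- replicate 1. Fcrla, at 0.467 to 2.37 RPM, was below the filter. Of 10808 genes tested, 20.2% were called higher and 22.5% lower.

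Within the Rnaset2-/- Ly6Clow groups, the B-lineage genes did not share a single order over the libraries, in the liver or in the spleen. Replicate 2 of the Rnaset2-/- hepatic Ly6Clow macrophages had the highest Fcrl5 (818.3 RPM) and Cd72 (1986 RPM) and the lowest Ms4a1 (1.48 RPM), Pax5 (3.81 RPM), Fcrla (0.467 RPM) and Cd22 (5.91 RPM) of its 3 libraries. Fcrl1 was also highest there (50.3 RPM), and Cd79b (189.7 RPM) lay between the other libraries. Replicate 3 had the highest Ms4a1, Pax5, Fcrla and Cd79b, with Fcrl5 at 450.0 RPM. Replicate 1 had the least Fcrl5 and also the lowest sum of the 6 B-lineage members, 192 RPM against 252 and 432 RPM. In the spleen, replicate 1 had the most Fcrl5 (270.6 RPM), Ms4a1 (2.70 RPM), Cd79b (99.9 RPM) and B-lineage sum (163 RPM). The same library had the least Pax5 (0 RPM) and Cd22 (6.76 RPM), and its Fcrla and Fcrl1 lay between those of other libraries. These orders rest on 3 and 4 libraries and were not tested. In the wider list, 9 of 15 tested genes rose and 1 fell, beside 20.2% and 22.5% of all genes tested. When any 1 of the Rnaset2-/- libraries was left out, 5 rose. Pou2af1 was at a mean of 45.7 RPM against 0.553 RPM and Fcmr, the IgM Fc receptor, at 8.84 RPM against 0.0567 RPM. Fcmr passed the filter through the Rnaset2-/- libraries alone. Siglecg, an inhibitory lectin of B-1 cells, fell from a mean of 9.04 RPM to 0.848 RPM. T-cell genes rose in 8 of 10 tested, with a summed level of 56.7 to 217 RPM against 30.2 to 45.9 RPM, and KC genes rose in 6 of 8. Erythroid genes rose in 6 of 7 and endothelial genes in 3 of 9. The part of these cells in Fcrl5 and Cd72 was not tested.

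In hepatic Ly6Chi macrophages, all of the members were higher in the 3 Rnaset2-/- libraries than in any wild-type library. This position was found in 36.4% of the 10957 genes tested, and 15.7% were called higher by limma. Fcrl5 rose by 4.57 ± 0.479 on the log2 scale (adjusted p = 0.000827), with 1303 reads against 3 reads and a ratio of 402.5 (exact 95% interval 137 to 1954, counting error only). Cd72 rose from 8.95, 15.9 and 10.9 RPM to 93.0, 132.1 and 130.5 RPM (2.92 ± 0.223, adjusted p = 0.000252). Pax5 rose by 4.21 ± 0.330 (adjusted p = 0.000262) and Ms4a1 by 4.07 ± 0.450 (adjusted p = 0.000958). Cd22 rose from 7.72 to 16.0 RPM to 56.6 to 89.2 RPM (2.28 ± 0.274, adjusted p = 0.00128), the opposite of its direction in the spleen. Cd79b rose by 1.47 ± 0.302 (adjusted p = 0.00995) and Fcrla by 1.74 ± 0.423 (adjusted p = 0.0182, and 0.0618 to 0.0654 when any of 4 libraries was left out, namely replicates 1 and 3 of wild type and 2 and 3 of Rnaset2-/-). For Fcrl1 the difference was 0.93 ± 0.319 (adjusted p = 0.0582), and 1.30 (adjusted p = 0.000799) without Rnaset2-/- replicate 1. Fcrl5 and Ms4a1 passed the filter through the Rnaset2-/- libraries alone.

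The rise of B-cell genes in hepatic Ly6Chi macrophages was broad. Of the wider list, 14 of 18 rose and none fell, among them Pou2af1 (4.71 ± 0.364) and Fcmr (4.52 ± 0.303). Among all genes tested, 15.7% were called higher. Of the 18, 7 were under 1 RPM in every wild-type library, Fcmr among them, and so passed the filter through the Rnaset2-/- libraries alone. Without Rnaset2-/- replicate 2 or 3 the number that rose was 4. Genes of other cell types rose beside them. They rose in 9 of 11 tested T-cell genes, 8 of 10 NK-cell genes, 6 of 7 erythroid genes and all 9 endothelial genes, and the summed T-cell level was 347 to 685 RPM against 28.5 to 52.6 RPM. Replicate 1 had the most T-cell transcripts (685 RPM) and the least Fcrl5, Ms4a1 and Pax5, and replicate 3 the most Ms4a1 and Pax5. Summed NK-cell and endothelial levels were, like Ms4a1 and Pax5, lowest in replicate 1 and highest in replicate 3. The part of these cells in the rise of Fcrl5 and Cd72 was not tested.

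**Figure D3:**
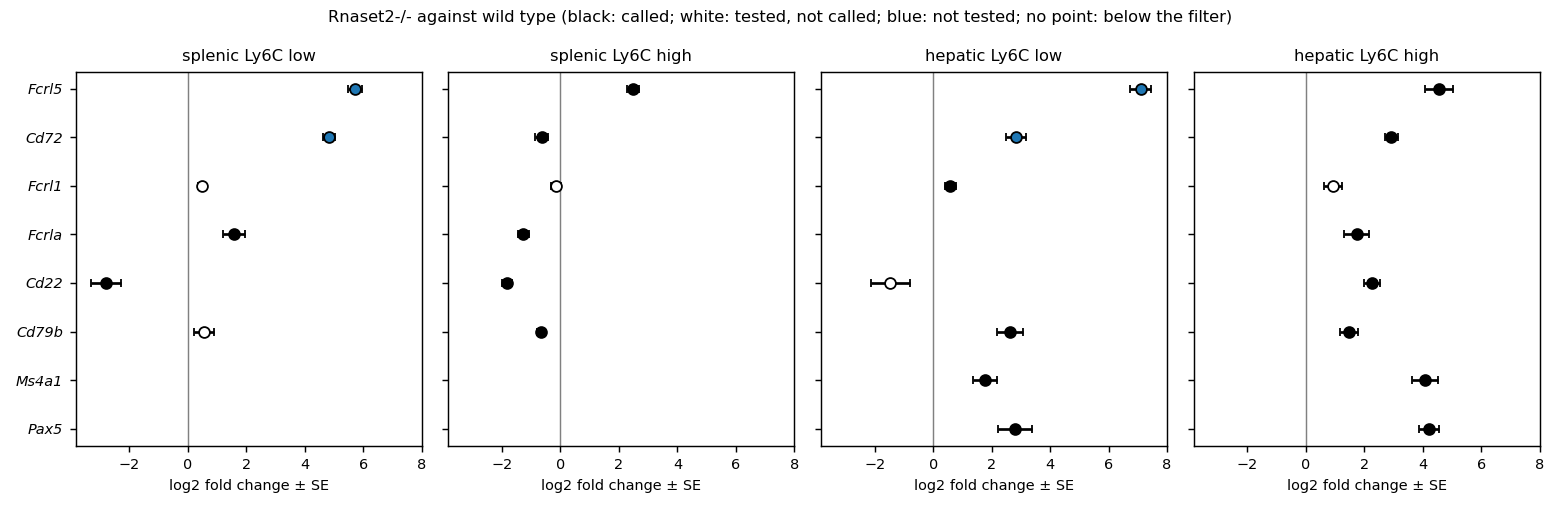
Log2 fold change (Rnaset2-/- against wild type, on log2(RPM + 1) after scaling) of each gene in the 4 comparisons, with bars for the SE. Black points passed >1.5-fold and an adjusted p below 0.05, white points were tested and did not, blue points are Fcrl5 and Cd72 where they were chosen for the difference and carry no test, and genes without a point were below the filter. Cd22 lies left of 0 in both splenic comparisons and right of 0 in hepatic Ly6Chi macrophages.

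Fcrl5 and Cd72 were also set against the B-cell genes of the same library, as a description with no test, since the pair was chosen for its levels in Ly6Clow macrophages and the ratios restate that choice there. Per RPM of the 6 B-lineage members, Fcrl5 was at 1.15 to 1.97 in Rnaset2-/- splenic Ly6Clow libraries against 0.00924 to 0.0196 in wild type, and at 1.04 to 3.25 in hepatic Ly6Clow libraries against 0.0172 to 0.0256. It was at 0.0755 to 0.209 in Rnaset2-/- hepatic Ly6Chi libraries and at 0.00171 to 0.00368 in KCs. Cd72 per the same 6 was at 2.62 to 3.92 against 0.0675 to 0.0819 in splenic Ly6Clow macrophages, at 3.997 to 7.89 against 1.40 to 1.84 in hepatic Ly6Clow macrophages and at 0.366 to 0.606 against 0.212 to 0.352 in hepatic Ly6Chi macrophages. The largest part of the 6-gene sum in wild-type splenic Ly6Clow libraries was Cd22, at a mean of 108.9 RPM against 18.7 RPM in Rnaset2-/-. The fall of Cd22 there adds to the rise of both ratios. Ms4a1 and Pax5 alone, a pair chosen after the levels were seen, gave other results in the liver. The log2 ratio to them, Rnaset2-/- minus wild type, was -0.12 for Cd72 in hepatic Ly6Clow macrophages (1.59 with the 6 members). For this log2 ratio, 1 RPM was added to the gene and to the sum. In hepatic Ly6Chi macrophages it was -0.12 for Fcrl5 (2.32 with the 6 members) and -1.64 for Cd72 (0.81 with the 6 members). In splenic Ly6Chi macrophages that of Cd72 was 0.22 with the 6 members, -0.65 with the wider list and -0.30 with Ms4a1 and Pax5. The sum of Ms4a1 and Pax5 was at most 2.25 RPM in wild-type Ly6C subsets and 1.42 to 2.70 RPM in Rnaset2-/- splenic Ly6Clow libraries, so ratios to it rest on few reads there. The sign of these log2 differences depended on the genes chosen, apart from Fcrl5 in the spleen and in hepatic Ly6Clow macrophages and Cd72 in splenic Ly6Clow macrophages. For Fcrl5 in hepatic Ly6Chi macrophages, the sign also depended on the added 1. Without it, Fcrl5 per RPM of Ms4a1 and Pax5 was at 0.258 to 0.796 there, against 0 to 0.430 in wild type. Cd72 in splenic Ly6Chi macrophages was then at 14.75 to 183.9 against 15.63 to 25.09.

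The effect of the deletion differed between liver and spleen. In Ly6Chi macrophages, all 8 members changed more upward in the liver, with a difference of log2 fold changes of 4.13 ± 0.345 for Cd22 (adjusted p = 4.63e-06) and 3.59 ± 0.339 for Cd72 (adjusted p = 1.25e-05), and of 4.67 ± 0.520 for Ms4a1 and 4.16 ± 0.455 for Pax5. Of 11398 genes tested, 17.9% changed more upward and 16.4% more downward in the liver. Genes of other cell types changed more upward there too, namely 11 of 11 tested T-cell genes, 10 of 10 NK-cell genes and 8 of 9 endothelial genes. Of 12 macrophage genes, 1 changed more upward and 3 more downward. The part of these other cells was not tested. For Fcrl5 the difference was 2.22 ± 0.544 (adjusted p = 0.00799), and the call was lost with an added value of 0.1 (adjusted p = 0.0666), in DESeq2 (0.441) and in edgeR (0.601). In Ly6Clow macrophages, the difference was 2.70 ± 0.689 for Pax5 (adjusted p = 0.0115) and 2.08 ± 0.621 for Cd79b (adjusted p = 0.0248, and 0.0503 to 0.0551 without wild-type splenic or hepatic replicate 1, wild-type hepatic replicate 3 or Rnaset2-/- hepatic replicate 3), whereas those of Cd22, Fcrl1, Fcrla and Ms4a1 had adjusted p of 0.116 to 0.724. Pax5 in Ly6Clow and Ms4a1 in Ly6Chi macrophages passed the filter through the Rnaset2-/- hepatic libraries alone. In the spleen, Pax5 was at most 0.986 RPM in the Ly6Clow libraries, and in the Ly6Chi libraries Ms4a1 was at most 0.694 RPM and Pax5 at most 0.803 RPM. The splenic side of these differences therefore rests on few reads. Of 11308 genes tested, 12.3% changed more upward in the liver and 14.8% more downward. Sex-linked transcripts differed between genotypes in the liver but, apart from 1 library, not in the spleen, and the part of sex was not tested.

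**Figure D4:**
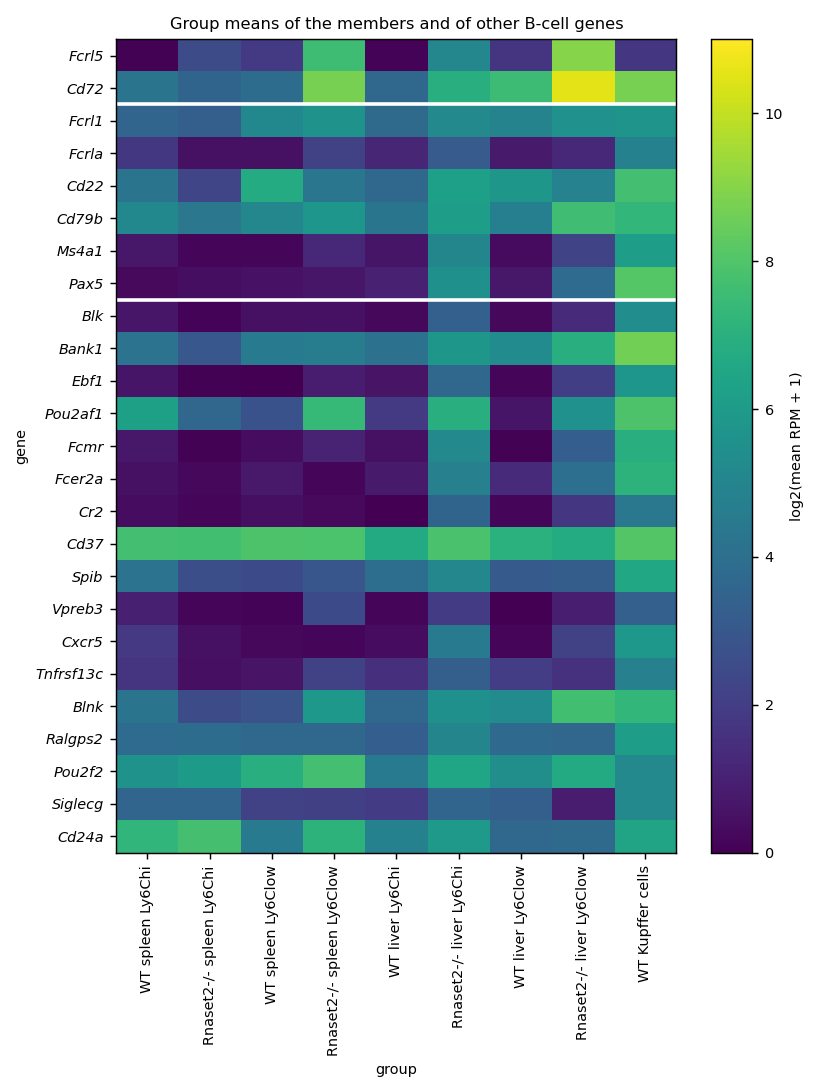
Group means of the 8 genes and of other B-cell genes (rows) in the 9 groups (columns), coloured by log2(mean RPM + 1). White lines divide Fcrl5 and Cd72, the B-lineage members and the wider list. KCs are bright across most B-cell rows and dark for Fcrl5, and Rnaset2-/- splenic Ly6Clow macrophages are dark for Blk, Cr2 and Cxcr5.

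The receptor family and its signalling partners changed in part. Of 6 FCRL-family genes in the table, Fcrl6, Fcrlb and Fcrls had group means of at most 4.15 RPM, reached by Fcrlb in Rnaset2-/- hepatic Ly6Chi macrophages. Fcrls fell in hepatic Ly6Clow macrophages, from 1.84 to 0.0517 RPM (-1.44 ± 0.249, adjusted p = 0.00244), and passed the filter through wild type alone. Among 19 other inhibitory receptors with ITIMs or related motifs, 7 of 17 tested rose and 1 fell in splenic Ly6Clow macrophages, where 4.05% of all genes rose, and 9 of 18 rose and 4 fell in hepatic Ly6Clow macrophages, where 20.2% of all genes rose and 22.5% fell. The median log2 fold change of the list was 0.74 in the spleen and 0.67 in the liver, beside 0.01 for all genes tested in each. Siglece, a sialic acid-binding receptor of myeloid cells, rose by 3.21 ± 0.144 (adjusted p = 1.82e-05) in the spleen and by 4.23 ± 0.176 (adjusted p = 4.90e-06) in the liver. Pecam1, which is also on the endothelial list, rose by 2.66 ± 0.176 and 3.50 ± 0.365, and Cd200r1, the receptor of CD200, by 2.48 ± 0.565 and 3.56 ± 0.288. Of 27 tested signalling genes, 4 rose and 2 fell in splenic Ly6Clow macrophages, among them the kinases Syk (1.30 ± 0.152, adjusted p = 0.00251) and Lyn (1.60 ± 0.402, adjusted p = 0.0436). In hepatic Ly6Clow macrophages, 13 of 29 rose and 7 fell, beside the same 20.2% and 22.5% of all genes. Lyn rose by 2.35 ± 0.421 (adjusted p = 0.00285), and Sema4d, whose product binds CD72, fell by 2.46 ± 0.366 (adjusted p = 0.00119).

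Over the means of the 9 groups, the profiles of Fcrl5 and Cd72 had a Pearson r of 0.73. The r of Fcrl5 was 0.19 with Ms4a1, 0.18 with Pax5 and -0.11 with Cd22, and that of Cd72 was 0.53, 0.55 and 0.33. Fcrl1 and Cd79b were nearer to both, at 0.60 and 0.58 with Fcrl5 and at 0.82 each with Cd72. Among 9675 genes with at least 10 RPM in some group, the most similar to Fcrl5 were Vasp (0.95), Hcls1 (0.95), Fam50a (0.95), Cbr3 (0.94) and Ociad2 (0.93). Among those most similar to Cd72 were Hpgds (0.97), Ccdc107 (0.96), F11r (0.96) and Cadm1 (0.94). None of these is on the B-cell lists. The 9 means share the libraries and cover several cell populations, so the values describe likeness of profile only.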

How the data were processed

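The study measured gene expression in sorted macrophages with the Ion AmpliSeq Transcriptome kit for the mouse, in which 1 amplicon stands for each gene. The authors counted reads on mm10 with the AmpliSeqRNA plug-in 5.2.0.3 of Torrent Suite 5.2.2 and deposited them as RPM (reads per 1000000 reads of the library), not pooled over replicates. All values corresponded to whole reads within 0.1 reads, so the reads were recovered. Groups follow the sample labels. Differences were fitted with limma 3.58.1 (R 4.3.3, trended variance, two-sided) on log2(RPM / relative log expression factor + 1), over genes that reached 1 RPM in 3 or more libraries of the comparison, with Benjamini-Hochberg adjustment over all genes tested. Calls needed an adjusted p below 0.05 plus a change >1.5-fold, the latter not for the difference between organs. Values of Fcrl5 and Cd72 that chose them carry no p. Levels are RPM as deposited. The rule named all members, up to 3 called genes of each other list by fold change, and 5 genes most like Fcrl5 and 5 most like Cd72. Blk, Fcer2a, Cr2, Cxcr5, Ebf1, Fcmr, Vpreb3, Tnfrsf13c, Spib and Bank1 in the splenic libraries were named after their values were seen. The members and gene lists were chosen with earlier results of these data known. No replicate pair agreed within sampling noise. The fit was tested on simulated data. Alternatives were an added value of 0.1, no filter, RPM without rescaling, TMM factors, relative log expression over all libraries, a single fit of all groups, the replicate number as a block, edgeR 4.0.16 and DESeq2 1.42.0 on the recovered reads, and leaving out each library. Cd79a, and the deleted genes Rnaset2a and Rnaset2b that would check the labels, were not analysed here. Some genes that the rule would name are not reported here, although they remain in the counts.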

Additional observations from a re-analysis of the deposited data

Results flagged for a closer look

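Cd22 was at 43.478 RPM in replicate 3 of the Rnaset2-/- splenic Ly6Clow macrophages, far from the other 3 libraries at 6.76 to 12.8 RPM. It was the only one of the 16 sets of 4 libraries examined, of which chance would flag about 1 in 20, and its library had 4409 RPM of neutrophil genes, against 40758 and 22881 RPM in replicates 1 and 2. The effect of the deletion differed between liver and spleen, by a test of the difference itself (limma), in 10 of 14 cases tested. In Ly6Clow macrophages these were Cd79b (2.083, adjusted p = 0.0248) and Pax5 (2.701, adjusted p = 0.0115), as log2 fold change in the liver minus that in the spleen. In Ly6Chi macrophages they were Cd22 (4.135), Cd72 (3.592), Cd79b (2.182), Fcrl1 (1.122), Fcrl5 (2.216), Fcrla (3.026), Ms4a1 (4.673) and Pax5 (4.159), with adjusted p of at most 0.0355. Among all genes tested, 12.3% changed more upward in the liver and 14.8% more downward in Ly6Clow macrophages, and 17.9% and 16.4% in Ly6Chi macrophages. The call of Fcrl5 was lost in DESeq2 and in edgeR, and that of Cd79b in Ly6Clow macrophages without some single libraries. Pax5 in Ly6Clow and Ms4a1 in Ly6Chi macrophages passed the filter through the Rnaset2-/- hepatic libraries alone. Every Rnaset2-/- hepatic macrophage library also differed from wild type in sex-linked transcripts, and this was not so for most splenic libraries.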

How the results depend on the processing

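In splenic Ly6Clow macrophages, the number of B-lineage members called higher was 0 in place of 1 without the filter, and 0 to 1 when 1 library was left out, as was the number called lower (0 to 1). The number of wider B-cell genes called higher was 0 in place of 3 without the filter, and 0 to 4 with 1 library left out. Fcrl5 differed by 6.159 with an added value of 0.1, by 6.195 in DESeq2 and by 6.177 in edgeR. Without replicates 1 and 2, chosen after seeing the data, Cd79b turned to -0.02193 and the organ difference of Fcrl1 to -0.01601. In splenic Ly6Chi macrophages, the 1 wider gene called higher was 0 on RPM as deposited and in a single fit of all groups, and 0 to 1 with 1 library left out. Cd72 was -0.6345 without the filter, -0.6299 in a single fit and -0.6342 in edgeR, all no longer called, and -0.9166 to -0.4684 with 1 library left out. In hepatic Ly6Clow macrophages, with 1 library left out, 1 to 3 members were called higher, 0 to 1 lower (1 also in a single fit), and 5 to 8 wider genes higher, since genes present in the Rnaset2-/- libraries alone then drop below the filter. Fcrl5 there differed by 7.747 in DESeq2 and 7.73 in edgeR. In hepatic Ly6Chi macrophages, the counts were 3 to 5 members and 4 to 12 wider genes. For the organ difference in Ly6Clow macrophages, 0 to 2 members were higher with 1 library left out, 2 to 6 wider genes were higher (3 in edgeR) and 1 to 2 lower (1 without the filter, on RPM as deposited, and without replicates 1 and 2). For that in Ly6Chi macrophages, 8 to 14 wider genes were higher, and Fcrl5 differed by 2.238 with an added value of 0.1, 1.579 in DESeq2 and 1.748 in edgeR, no longer called. Log2 ratios to sums of B-cell genes were taken after 1 RPM was added to the gene and to the sum. The log2 ratio of Fcrl5 to the B-lineage members, Rnaset2-/- minus wild type, was 6.22 in splenic Ly6Clow, 3.40 in splenic Ly6Chi, 5.85 in hepatic Ly6Clow and 2.32 in hepatic Ly6Chi macrophages. With the wider list it was 4.866 and 2.524 in the spleen, and with Ms4a1 and Pax5, chosen after seeing the data, it was 4.772, 2.879, 4.136 and -0.1221 in that order. For Cd72 the ratio was 5.32, 0.22, 1.59 and 0.81. With the wider list it was 3.968 and -0.6535 in the spleen and 1.349 in hepatic Ly6Chi macrophages, and with Ms4a1 and Pax5 it was 3.874, -0.2977, -0.1233 and -1.637. In splenic Ly6Chi macrophages it was -0.04307 to 0.3752 with 1 library left out, negative without Rnaset2-/- replicate 1. Unless stated, the cause of these changes was not tested. Scaling moved the median of all genes in hepatic Ly6Chi macrophages from 0.01 to 0.31 on RPM as deposited. Same-numbered libraries of the genotypes correlated at -0.203 to 0.155, so they share only a number, and with the replicate number as a block only Fcrl1 lost its calls, with an unchanged difference of 0.5912 in hepatic Ly6Clow macrophages (adjusted p = 0.0686) and 1.122 between organs in Ly6Chi macrophages (adjusted p = 0.0588). Ms4a1, Pax5 and Fcrla lay near the floor of 0.142 to 0.268 RPM in many groups, where absence cannot be shown.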
